A study of Triticum polonicum with 8 samples.

Results

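The 300 best expressed loci without a chromosome arm code were described in roots of dwarf Polish wheat, a tetraploid wheat with the A and B subgenomes. They were chosen by their mean CPM (the count scaled to the total of its column) over the 8 columns of the deposited count table, out of 10428 loci with identifiers of the form Novel05381, in which only a serial number follows the prefix. The table holds 124856 genes in all. The level itself thus chose the loci and is given as a description. The other 114428 identifiers name bread wheat gene models and carry a chromosome or arm code or the code U, and are called arm-coded genes.

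Seedlings had been grown in nutrient solution and were treated for 1 week before roots were taken at an age of 4 weeks. The 8 libraries cross Ca/K supply, Cd and Zn. N2_Cd_Zn, N2_Cd, N2_Zn and N2 had 8 mM calcium nitrate and 10 mM potassium nitrate, so that Ca, K and nitrate were raised together, and N0_Cd_Zn, N0_Cd, N0_Zn and N0 had 4 mM and 5 mM. Libraries with Cd in the name received 80 µM CdCl2, those with Zn in the name received 500 µM Zn, and all others had the basal 5 µM Zn. Per the labels, each treatment had 3 biological replicates, but the tables hold 1 column per treatment, so a difference between single libraries has no replicate check. The series design text calls the Ca/K levels lack and supply, although the labels give N0 the 4 mM and 5 mM above. The question posed by the series title is how Ca and K act on the interplay between Cd and Zn.

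In RNA sequencing, loci of this kind are commonly stretches of genome that collect reads outside the gene models of the annotation used. They can be protein-coding genes that the annotation missed, noncoding RNAs, pieces of genes whose model is too short, transposon-derived transcripts, or genes of the studied plant that differ from those of the reference cultivar. Cadmium is a toxic metal that enters roots largely through transporters of nutrient metals, zinc is a micronutrient that is toxic in excess, and calcium, potassium and nitrate are major nutrients and also signals that alter root transcription. Neither file gives a position, sequence or description for these loci, so which kind each one is was not analysed here, and the root label was not checked against marker genes. Reads of a locus that overlaps another gene, lies antisense to it or has a near-identical copy on the other subgenome may be split between them, and each single value is uncertain to that extent. In bulk roots, fewer cells of a type and less RNA per cell cannot be told apart.

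Column totals ran from 20000875 to 25241789 counts. All 10428 loci without an arm code held between 6.49% (N2_Cd) and 8.34% (N0) of the counts of a library, and the 300 loci held between 2.32% (N2_Cd) and 3.27% (N0_Zn). Among pairs of libraries that differ in 1 factor, the largest shares of all genes 2-fold or more apart were found where N0_Zn or N0_Cd_Zn took part. In N0_Cd_Zn against N0_Zn, 21.1% of all genes compared were higher and 23.1% lower, in N2_Zn against N0_Zn 21.8% and 20.6%, and in N2_Cd_Zn against N0_Cd_Zn 19.9% and 18.4%. Not every pair with these libraries had large shares. N0_Zn against N0 had 8.43% and 10.4%, less than N2 against N0, with 13.7% and 15.8%. N2_Cd had almost no reads of several loci that all other libraries had, described at the end.

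The reads of the 300 loci were concentrated in a few of them. Of the 300, 54 averaged over 100 CPM and 2 over 1000 CPM. The 3 loci with the highest mean CPM held 11.3% to 12.9% of the counts of the 300 in the N2 libraries and 17.98% to 21.3% in the N0 libraries, a difference that follows the first of them. The last loci inside the rank threshold were Novel07718 (37.92 CPM) and Novel07641 (37.85 CPM), and the first outside it were Novel06387 (37.84 CPM) and Novel04416 (37.74 CPM). The boundary at rank 300 therefore falls on a continuous range of levels.

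Novel05381, a locus of 1017 bp, headed both the mean CPM and the mean FPKM (CPM per kilobase, 1769). It had 449 CPM in N2_Cd_Zn, 544 CPM in N2_Cd, 528 CPM in N2_Zn and 831 CPM in N2, against 2963 CPM in N0_Cd_Zn, 2905 CPM in N0_Cd, 2876 CPM in N0_Zn and 3295 CPM in N0. The 4 libraries of high Ca/K all lay below the 4 of basal Ca/K, and within each Ca/K level the highest value was that of the library without added metal. Novel00409 (1089 bp, mean FPKM 835) was steady by comparison, with 865, 742, 693 and 884 CPM in N2_Cd_Zn, N2_Cd, N2_Zn and N2 and 942, 879, 1117 and 1150 CPM in N0_Cd_Zn, N0_Cd, N0_Zn and N0. Novel08250, only 380 bp long, was next per length (mean FPKM 827), and its CPM ran from 226 in N0_Cd_Zn to 419 in N2_Cd_Zn.

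Novel09909 had almost the same mean CPM as Novel05381 but, at 3307 bp, a mean FPKM of 540. Its CPM was 2063 in N2_Cd_Zn, 1341 in N2_Cd, 2282 in N2_Zn and 1400 in N2, against 652 in N0_Cd_Zn, 2155 in N0_Cd, 2528 in N0_Zn and 1859 in N0. The only value under 1000 CPM was that of N0_Cd_Zn. Novel05562 (1088 bp) was the leading locus with the highest values under Zn, at 1303 CPM in N2_Cd_Zn and 1579 CPM in N2_Zn, against 271 CPM in N2_Cd and 268 CPM in N2. At basal Ca/K the same locus had 249.6 CPM in N0_Cd_Zn and 616 CPM in N0_Zn, against 135 CPM in N0_Cd and 79.2 CPM in N0. Novel06186 (1162 bp) instead was lowest where Cd was given alone or at basal Ca/K with Zn, with 217 CPM in N0_Cd, 270.5 CPM in N2_Cd and 290.0 CPM in N0_Cd_Zn, while the other 5 libraries lay between 551 and 661 CPM. The remaining loci of the first 10 (Novel04605, Novel05945, Novel09085 and Novel01020) ranged from 123 CPM (Novel01020 in N0_Zn) to 531 CPM (Novel04605 in N2_Cd_Zn).

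**Figure D1:**
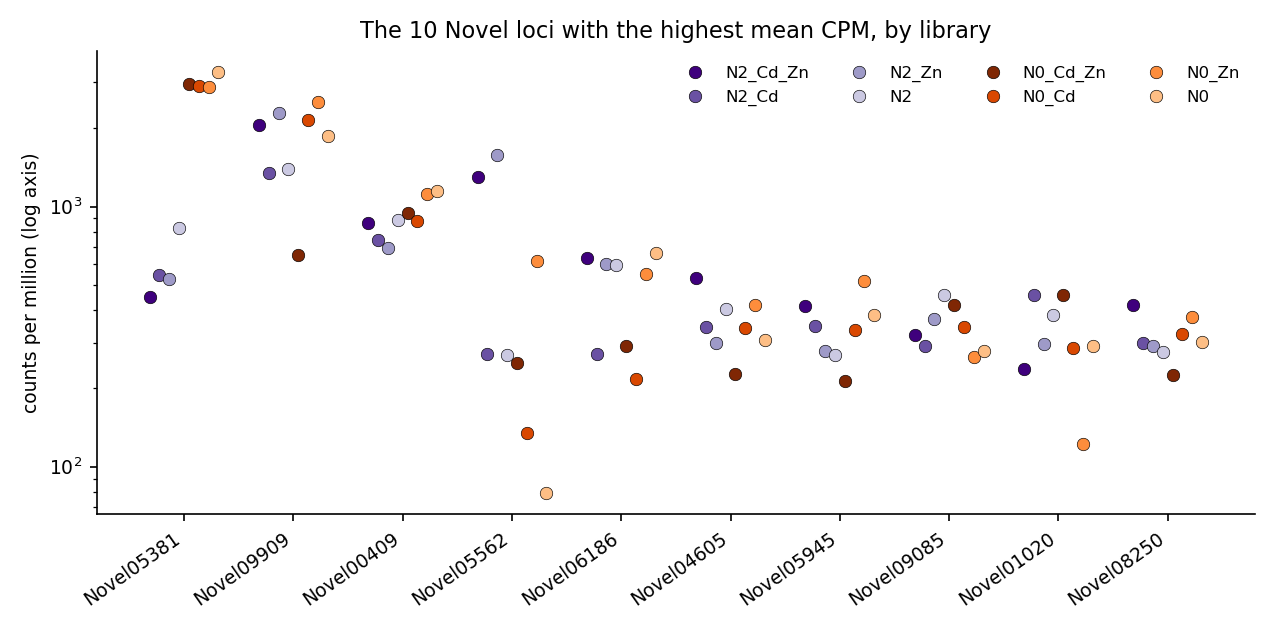
CPM on a log axis of the 10 loci with the highest mean CPM, with 1 point per library. Novel05381 splits by Ca/K supply, with 449 to 831 CPM in the 4 N2 libraries and 2876 to 3295 CPM in the 4 N0 libraries, and Novel05562 spans the widest range of the 10, from 79.2 CPM in N0 to 1579 CPM in N2_Zn.

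Lengths, recovered from the ratio of counts to FPKM, ran from 283 bp to 7453 bp with a median of 1823.5 bp. The 5308 arm-coded genes whose mean CPM lay within the range of the 300 had a median of 1907 bp, and the loci without an arm code outside the 300 had a median of 1315 bp. Short loci were more frequent than among the arm-coded genes of like level: 16 of the 300 (5.33%) were under 500 bp, against 9 of 5308 (0.170%). Among the loci without an arm code outside the 300, 684 (7.04%) were that short. The shortest were Novel01258 (283 bp), Novel00902 (304 bp) and Novel06290 (331 bp), and the longest were Novel07891 (7453 bp), Novel03913 (7217 bp) and Novel00465 (7099 bp). Per length the levels of the 300 and of the arm-coded genes of like CPM were close, with median mean FPKM of 34.3 and 35.3. These are descriptions, since no test between gene lists was made.

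Loci varied across libraries about as much as arm-coded genes of like level. The standard deviation of log2(CPM + 1) over the 8 libraries had a median of 0.43 (quartiles 0.27 and 0.82) for the 300 and 0.49 (0.30 and 0.85) for the 5308 arm-coded genes. At the steady end, 90 of the 300 (30.0%) had a standard deviation under 0.3, against 24.8% of the arm-coded genes. The steadiest were Novel07324, Novel02264, Novel02056, Novel04551 and Novel00465, at 0.13 or 0.14. Novel00465, for instance, had 82.7, 89.2, 74.0 and 89.6 CPM in N2_Cd_Zn, N2_Cd, N2_Zn and N2 and 97.9, 88.7, 101.3 and 96.3 CPM in N0_Cd_Zn, N0_Cd, N0_Zn and N0.

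At the variable end, 3 of the 300 had over 50% of their summed CPM in 1 library. Novel02379 (1764 bp) had 76.7% of it in N0_Zn, with 259 CPM there, 49.0 CPM in N2, 13.6 CPM in N0_Cd, 11.04 CPM in N2_Zn, 4.64 CPM in N2_Cd, 0.207 CPM in N0, 0.139 CPM in N0_Cd_Zn and 0 in N2_Cd_Zn. Novel01047 (685 bp) had 64.2% of it in N2, with 563 CPM, against 91.5 CPM or less in each of the other 7 libraries. Novel06333 (3615 bp) had 51.6% of it in N0_Zn, with 249.7 CPM in N0_Zn and 148 CPM in N0, against 2.89 to 29.4 CPM in the other 6 libraries. Under 1 CPM in at least 1 library were 7 of the 300 (2.33%), against 29 of the arm-coded genes of like level (0.546%). A library with no read occurred for 2 of the 300 (0.667%, against 0.113%), namely Novel02379 in N2_Cd_Zn and Novel06751 in N2.

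The libraries in which the loci peaked were not evenly distributed. Of the 300, 69 had their highest CPM in N0_Zn, 65 in N0, 45 in N2, 35 in N2_Cd_Zn, 34 in N0_Cd_Zn, 32 in N2_Zn, 11 in N2_Cd and 9 in N0_Cd. Among the arm-coded genes of like level, N0 held the peak of 7.93%, against 21.7% of the 300, and N0_Cd_Zn that of 19.6%, against 11.3% of the 300. The lowest value fell in N2_Zn for 87 of the 300 (29.0%, against 12.1% of the arm-coded genes) and in N0_Zn for 56 (18.7%, against 33.2%). N0_Cd and N2_Cd, the libraries with Cd alone, were the least frequent peaks. These peaks come from CPM scaled to column totals alone. The TMM factors used for the pairs below ran from 0.866 (N0_Zn) to 1.14 (N2). For loci that varied little, the highest and lowest library can therefore depend on the scaling, which was not tested.

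**Figure D2:**
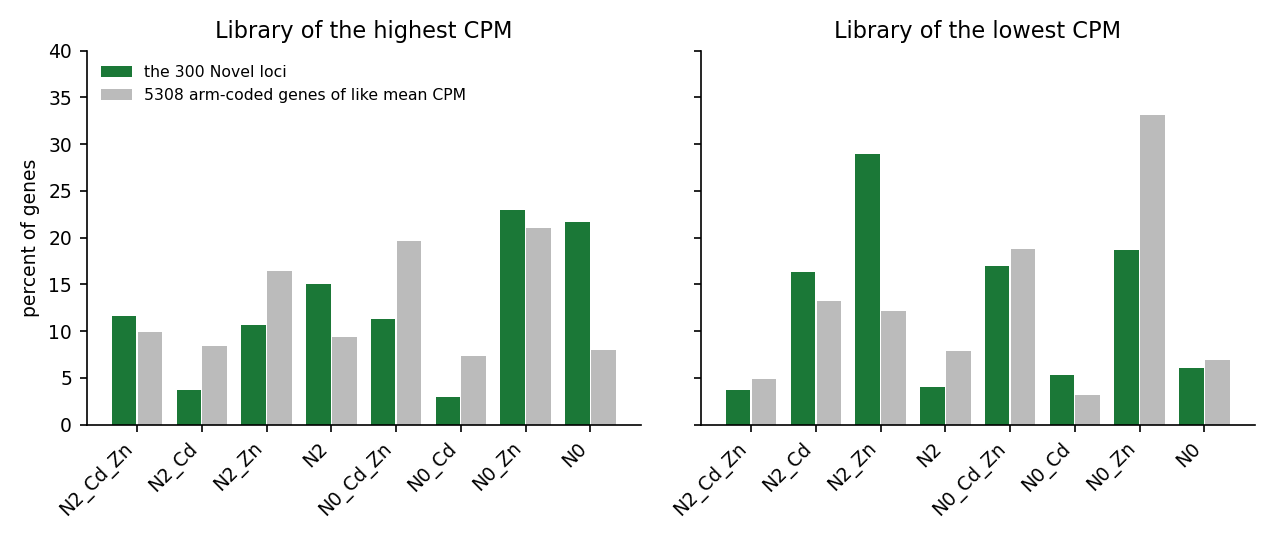
Percent of genes whose highest CPM (left) or lowest CPM (right) fell in each library, for the 300 loci and for 5308 arm-coded genes with a mean CPM in the same range. CPM was scaled to column totals alone. N0 was the peak of 21.7% of the 300 loci and 7.93% of the arm-coded genes, and N2_Zn was the lowest library of 29.0% and 12.1%.

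Effects over all 8 libraries came from a quasi-likelihood fit in edgeR to the whole count table, with Ca/K, Cd and Zn as additive terms. All 300 loci passed the filter on low counts, as their level ensures. Since each treatment has 1 library, p-values measure how far a change recurs over libraries of different treatments. None of the 300 was called at an adjusted p under 0.05 for Cd, Zn or Ca/K, where 0%, 0% and 0.00155% of 64580 genes were called, nor for any 2-way interaction, where 0% were called each time. The absence of a call in these fits does not show that a locus did not differ. At an unadjusted p under 0.05 there were 5 loci for Cd (1.67%, against 2.97% of all genes), 6 for Zn (2.00%, against 1.97%) and 71 for Ca/K (23.7%, against 16.4% of all genes and 26.0% of arm-coded genes of like level). DESeq2 called 1 locus for Cd (0.333%, against 0.553% of all genes), 2 for Zn (0.667%, against 0.275%), 51 for Ca/K (17%, against 10% of all genes and 18.1% of arm-coded genes of like level) and 1 for the Ca/K by Cd interaction (0.333%, against 0.351%). On log2(FPKM + 1), limma called 9 for Ca/K (3%, against 0.922% of all genes and 1.92% of arm-coded genes of like level).

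Pairs of libraries were then compared as ratios of CPM scaled by TMM factors, which align the bulk of genes between libraries. A locus was counted when it was 2-fold or more apart and had at least 5 CPM in 1 of the 2 libraries, and each count is set beside the share of all genes compared. Folds carry a 95% interval that covers counting error only.

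**Figure D3:**
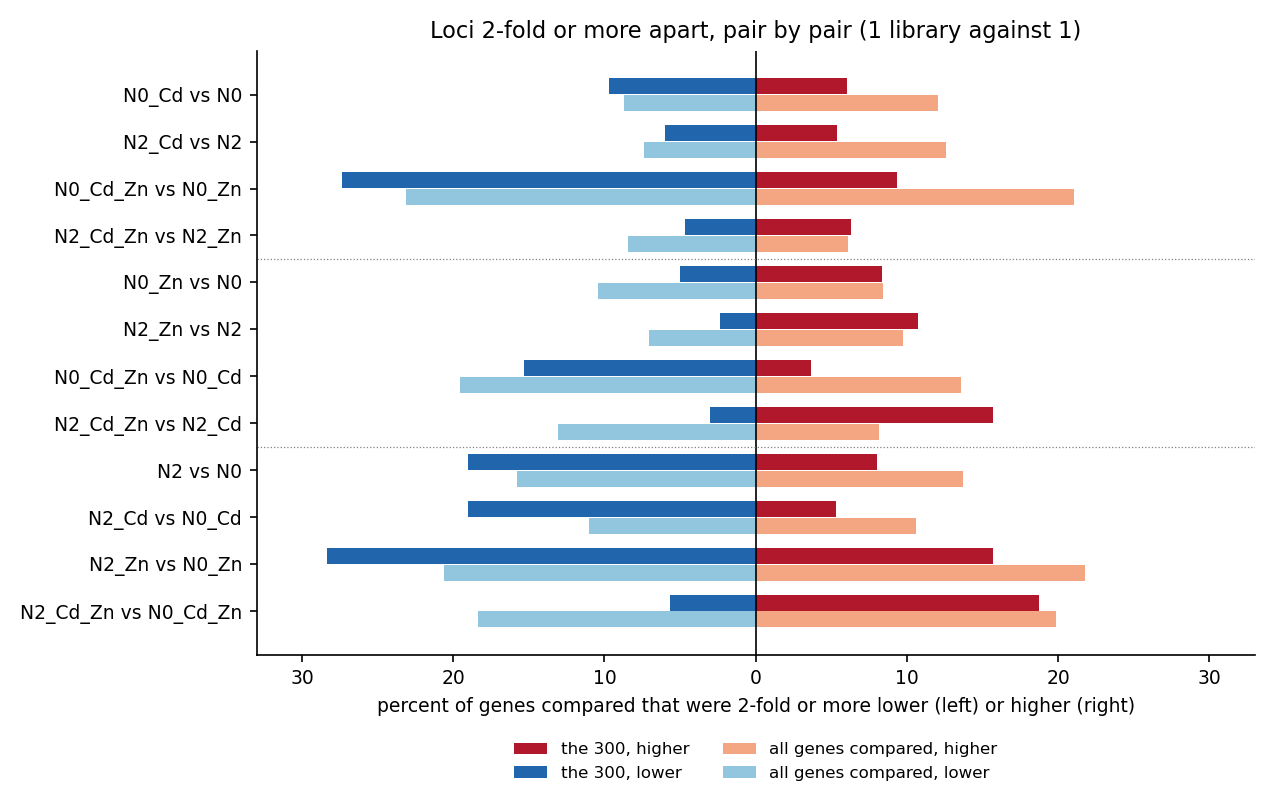
Percent of genes 2-fold or more lower (left) or higher (right) in each of the 12 pairs of libraries that differ in 1 factor, for the 300 loci and for all genes compared, with the first-named library on top of the ratio. The share of the 300 that was higher exceeded that of all genes in 3 of the 12 pairs (N2_Cd_Zn vs N2_Zn, N2_Zn vs N2 and N2_Cd_Zn vs N2_Cd).

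Cd alone at basal Ca/K had more of the loci lower than higher, whereas all genes had the opposite balance. In N0_Cd against N0, 18 of 299 loci were higher (6.02%, against 12.1% of all genes) and 29 lower (9.70%, against 8.72%), with a median log2 ratio of -0.22 against -0.0072 for all genes. The loci without an arm code outside the 300 had the same balance, with 6.15% higher, 14.4% lower and a median of -0.32. Novel02694 (1253 bp) was 21.0-fold higher (interval 17.7 to 25.1), with 124 CPM in N0_Cd and 5.75 CPM in N0, and Novel05437 (773 bp) was 17.5-fold higher (15.7 to 19.6), with 258 CPM and 14.3 CPM. Novel01047 was 8.62-fold lower (7.34 to 10.2) and Novel06333 was 8.52-fold lower (7.72 to 9.42).

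At high Ca/K, N2_Cd against N2 gave 16 of 299 loci higher (5.35%, against 12.6% of all genes) and 18 lower (6.02%, against 7.39%), with a median log2 ratio of -0.062 against 0.066. Novel02694 again had the largest ratio, with 310.4 CPM in N2_Cd and 51.7 CPM in N2 (6.84-fold, 6.44 to 7.26). Novel07852 followed with 67.0 and 20.1 CPM (3.79-fold, 3.43 to 4.21). The lowest ratios belonged to Novel00557, with 1 count in N2_Cd and 1465 counts in N2, and Novel01258, with 1 count and 919 counts, which are taken up at the end.

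With Zn present, the addition of Cd at basal Ca/K had the most loci lower of the 4 Cd pairs. In N0_Cd_Zn against N0_Zn, 28 of 300 loci were higher (9.33%, against 21.1%) and 82 lower (27.3%, against 23.1%), a split of 35 and 57 when libraries were scaled by their totals alone. The median log2 ratio was -0.50 against -0.17 for all genes. Of the arm-coded genes of like level, 15.7% were higher and 27.2% lower in this pair, with a median of -0.24. Novel08633 (1709 bp) was 27.8-fold higher (21.9 to 35.8), with 93.2 CPM in N0_Cd_Zn and 2.77 CPM in N0_Zn, and Novel02713 (1285 bp) was 16.0-fold higher (12.9 to 20.1). Novel02379 had 3 counts in N0_Cd_Zn and 6547 counts in N0_Zn (2248-fold lower, 769 to 10903), and Novel01047 was 132-fold lower (83.4 to 223). In N2_Cd_Zn against N2_Zn, 19 of 300 loci were higher (6.33%, against 6.09%) and 14 lower (4.67%, against 8.44%), with a median log2 ratio of 0.21 against -0.016. Novel06751 (3532 bp) was 21.4-fold higher (16.3 to 28.6) and Novel00649 (2550 bp) 18.5-fold higher (14.5 to 23.9), whereas Novel08633 was 11.7-fold lower (10.6 to 12.8) and Novel09572 (1459 bp) 8.00-fold lower (7.29 to 8.79). Novel08633 thus went in opposite directions in these pairs, with its lowest level in N0_Zn and its highest in N2_Zn (279 CPM).

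None of the 298 loci comparable in all 4 Cd pairs was 2-fold or more higher in every pair (0.114% of all genes) or lower in every pair (0.00761%). By any size, 4 of the 298 were higher in every pair, against 2.77% of all genes and 1.84% of arm-coded genes of like level. In every pair 20 of the 298 were lower, against 4.83% and 3.91%. Without the pair that holds N0_Cd_Zn, 2 of 298 were 2-fold higher in the other 3 pairs, against 1.05% of all genes, and 0 lower, against 0.197%. The edgeR log2 fold change for Cd with the smallest p was that of Novel01047, at -3.69 (SE 1.07, unadjusted p = 0.0127, adjusted p = 1), and its adjusted p by DESeq2 was 0.00708. Its levels were 64.6, 12, 0.837 and 6.76 CPM in N2_Cd_Zn, N2_Cd, N0_Cd_Zn and N0_Cd, against 80.7, 563, 91.5 and 56.8 CPM in N2_Zn, N2, N0_Zn and N0. Each Cd library lay below its partner without Cd, but the lowest value without Cd lay under the highest value with it.

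Zn alone at basal Ca/K had somewhat more of the loci higher than lower, a balance that rested on the scaling. In N0_Zn against N0, 25 of 300 loci were higher (8.33%, against 8.43% of all genes) and 15 lower (5.00%, against 10.4%), a split of 20 and 20 when libraries were scaled by their totals alone. The median log2 ratio was 0.069 for the loci and 0.072 for all genes. Novel02379 was the most different, with 6547 counts in N0_Zn and 5 counts in N0 (1385-fold higher, 593 to 4268), and Novel05562 was 8.59-fold higher (8.19 to 9.01). Novel08633 was 17.4-fold lower (13.7 to 22.4) and Novel00752 (1162 bp) 9.96-fold lower (8.28 to 12.1).

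In N2_Zn against N2, 32 of 299 loci were higher (10.7%, against 9.77%) and 7 lower (2.34%, against 7.05%), or 26 and 11 with library totals alone. The arm-coded genes of like level had nearly the same shares, with 10.6% higher and 2.57% lower. The median of the loci went the other way, at -0.079 on the log2 scale against 0.065 for all genes, with 139 loci above 0 and 160 below. Novel05562 was 6.79-fold higher (6.62 to 6.97), close to its fold at basal Ca/K. Novel00752 was 6.78-fold higher (6.40 to 7.18), with 332 CPM in N2_Zn and 56.5 CPM in N2, the opposite of its ratio at basal Ca/K. Novel00559 (3162 bp) was 13.4-fold lower (11.3 to 15.9) and Novel02564 (2577 bp) 9.76-fold lower (8.56 to 11.2).

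Zn given on top of Cd had opposite balances at the Ca/K levels. In N2_Cd_Zn against N2_Cd, 47 of 299 loci were higher (15.7%, against 8.17% of all genes) and 9 lower (3.01%, against 13.1%). Of those higher, 24 were 4-fold or more, against 773 of 32823 genes and 120 of 5292 arm-coded genes of like level. These counts include loci with almost no reads in N2_Cd, described at the end. In N0_Cd_Zn against N0_Cd, 11 of 300 were higher (3.67%, against 13.5%) and 46 lower (15.3%, against 19.6%). The arm-coded genes of like level had balances of the same directions. They had 9.20% higher and 7.39% lower at high Ca/K, and 5.75% and 18.5% at basal Ca/K. The median log2 ratios of the 300 were 0.19 against -0.041 for all genes at high Ca/K, and -0.064 against -0.023 at basal Ca/K. At high Ca/K the largest ratios were those of Novel00557 and Novel01258, which N2_Cd lacked, and the lowest were those of Novel02564 (11.7-fold lower, 10.4 to 13.2) and Novel08633 (3.02-fold lower, 2.73 to 3.35). At basal Ca/K, Novel01977 (1473 bp) was 6.30-fold higher (5.55 to 7.18) and Novel08633 3.75-fold higher (3.41 to 4.12), and Novel05437 was 27.3-fold lower (23.8 to 31.4) and Novel02445 (1333 bp) 26.7-fold lower (20.3 to 35.6).

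A single locus was 2-fold or more apart in the same direction in all 4 Zn pairs. Novel02564 was lower in each, with 15.4, 11.1, 10.5 and 11.6 CPM in N2_Cd_Zn, N2_Zn, N0_Cd_Zn and N0_Zn, against 172, 125, 143 and 28.4 CPM in their partners N2_Cd, N2, N0_Cd and N0. The 4 Zn libraries lay within a narrow band below every library without added Zn, and its mean log2 ratio was -2.95 ± 1.23 (SD, n = 4 pairs). All 4 lay under the 37.85 CPM mean of the last of the 300, so its membership rests on libraries without added Zn. When loci were chosen by median CPM instead, 0 were lower in all 4 Zn pairs. Among all genes compared, 0.158% were lower and 0.0192% higher in all 4 Zn pairs, against 1 and 0 of 298 loci. The edgeR log2 fold change of Novel02564 for Zn was -3.02 (SE 0.50, unadjusted p = 0.000745, adjusted p = 0.907), and DESeq2 gave an adjusted p of 6.13e-07. Novel05562 had an edgeR log2 fold change of 2.25 (SE 0.43, adjusted p = 1) and, by DESeq2, an adjusted p of 7.14e-05. By any size, 17 of the 298 loci were higher in every Zn pair, against 3.66% of all genes and 3.46% of arm-coded genes of like level. In every Zn pair 5 of the 298 were lower, against 2.81% and 2.08%. Without the pair that holds N0_Cd_Zn, 9 of 298 were 2-fold or more higher in the other 3 Zn pairs, against 0.866% of all genes and 1.27% of arm-coded genes of like level. In the same 3 pairs 1 of 298 was lower, against 0.844% and 0.625%.

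Both metals against none again differed in balance between the Ca/K levels. In N2_Cd_Zn against N2, 41 of 300 loci were higher (13.7%, against 11.7% of all genes) and 8 lower (2.67%, against 10.7%). In N0_Cd_Zn against N0, 11 of 299 were higher (3.68%, against 12.9%) and 49 lower (16.4%, against 14.2%). The median log2 ratios were 0.13 against 0.051 for all genes at high Ca/K, and -0.37 against -0.090 at basal Ca/K. The arm-coded genes of like level differed in the same way between the Ca/K levels. They had 13.4% higher and 5.24% lower in N2_Cd_Zn against N2, and 6.60% and 17.9% in N0_Cd_Zn against N0. In the first pair Novel06751 had 1123 counts in N2_Cd_Zn and 0 in N2. With N2 set at the floor of 3 counts per library it was 506-fold higher, and the lower end of the interval was 411. Novel06333 was 11.04-fold higher (8.63 to 14.3) in N2_Cd_Zn. Novel02379 had 0 counts in N2_Cd_Zn and 1222 in N2 (301-fold lower by the same floor, lower end of the interval 245), and Novel01047 was 8.03-fold lower (7.58 to 8.51). In the second, Novel07718 (671 bp) was 4.67-fold higher (4.204 to 5.19) and Novel01977 3.78-fold higher (3.40 to 4.22), whereas Novel01047 was 74.3-fold lower (46.8 to 126) and Novel06333 12.3-fold lower (10.9 to 14.0). N0 and N2 also serve as partners in the single-metal pairs above, so these counts share libraries with them.

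Ca/K supply gave the most recurrent pattern. In 3 of the 4 pairs more loci were lower than higher at high Ca/K. In N2 against N0, 24 of 300 were higher (8.00%, against 13.7% of all genes) and 57 lower (19.0%, against 15.8%), but 38 and 42 when libraries were scaled by their totals alone, and the median log2 ratio was -0.27 against -0.068 for all genes. In N2_Cd against N0_Cd, 16 were higher (5.33%, against 10.6%) and 57 lower (19.0%, against 11%), with a median of -0.16 against 0.0024. In N2_Zn against N0_Zn, 47 were higher (15.7%, against 21.8%) and 85 lower (28.3%, against 20.6%), with a median log2 ratio of -0.55 against -0.10 for all genes and -0.56 for the loci without an arm code outside the 300. The fourth pair went the other way: in N2_Cd_Zn against N0_Cd_Zn, 56 of 299 were higher (18.7%, against 19.9%) and 17 lower (5.69%, against 18.4%), with a median of 0.11 against -0.035. Among the arm-coded genes of like level the balance had the same direction in all 4 pairs. They had 9.61% higher and 19.9% lower in N2 against N0, and 6.08% and 13.1% in N2_Cd against N0_Cd. In N2_Zn against N0_Zn their shares were nearly even, at 21.4% and 22.0%. In N2_Cd_Zn against N0_Cd_Zn they were 18.4% and 11.5%.

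The extremes of these pairs were recurrent loci in part. Novel06280 (1472 bp) was 41.9-fold higher in N2 than in N0 (34.2 to 51.9) and 49.9-fold higher in N2_Cd than in N0_Cd (41.5 to 60.5). Novel02379 was 199-fold higher in N2 than in N0 (85.2 to 615), but 26.8-fold lower in N2_Zn than in N0_Zn (23.5 to 30.6). Novel06751 had 0 counts in N2 against 2939 in N0, which is 1200-fold lower with a floor of 3 counts (lower end of the interval 976). It was 28.8-fold lower in N2_Zn than in N0_Zn (22.0 to 38.6). Novel06333 was 61.0-fold lower in N2 than in N0 (48.3 to 78.1), with 2.89 and 148 CPM. Under Zn, Novel00325 (1226 bp) was 90.4-fold higher (69.3 to 120.1) and Novel08633 88.2-fold higher (69.7 to 113) at high Ca/K. Under Cd, Novel10214 (1016 bp) was 13.6-fold higher (11.4 to 16.5). With both metals, Novel01047 was 77.1-fold higher (48.6 to 130.5) and Novel09684 (903 bp) 44.6-fold higher (34.2 to 59.4), and Novel05381 was 6.61-fold lower (6.47 to 6.76) and Novel07571 (503 bp) 5.84-fold lower (5.20 to 6.57).

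Over all 4 pairs, 12 of 299 loci were 2-fold or more higher at high Ca/K (4.01%, against 1.95% of all genes) and 7 lower (2.34%, against 1.44%). Among the arm-coded genes of like level the shares were 1.95% and 2.06%. By any size, 31 of the 299 loci were higher in every pair, against 13.8% of all genes and 14.9% of arm-coded genes of like level. In every pair 69 of the 299 were lower, against 17.4% and 18.4%. The 4 N2 libraries lay above all 4 N0 libraries for 16 of the 300 (5.33%, against 6.79% of all genes) and below all 4 for 49 (16.3%, against 9.34% of all genes and 13.8% of the arm-coded genes of like level). Without the pair that holds N0_Cd_Zn, 15 of 300 loci were 2-fold higher in the other 3 pairs, against 4.3% of all genes and 3.46% of arm-coded genes of like level. In the same 3 pairs 36 of 300 were lower, against 6.64% and 10.0%.

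The 12 loci higher at high Ca/K were Novel06280, Novel09684, Novel10214, Novel00325, Novel01969, Novel02694, Novel08437, Novel02438, Novel01977, Novel00414, Novel03847 and Novel04125, with mean log2 ratios from 4.73 to 1.49. Novel06280 had 251, 235, 371 and 196 CPM in N2_Cd_Zn, N2_Cd, N2_Zn and N2, against 10.7, 4.64, 30.5 and 3.93 CPM in N0_Cd_Zn, N0_Cd, N0_Zn and N0. Every N2 value lay above the highest N0 value, that of N0_Zn. Novel09684 had 114, 104, 65.1 and 49.3 CPM in N2_Cd_Zn, N2_Cd, N2_Zn and N2, against 2.56, 21.5, 10.1 and 4.80 CPM in N0_Cd_Zn, N0_Cd, N0_Zn and N0. Novel10214 had 65.6, 70.4, 64.1 and 89.3 CPM in N2_Cd_Zn, N2_Cd, N2_Zn and N2, against 8.41, 5.08, 7.33 and 6.49 CPM in N0_Cd_Zn, N0_Cd, N0_Zn and N0. The N2 and N0 groups did not overlap for any of these 3 loci, and within each Ca/K level Novel10214 varied less than 2-fold. Every N0 value of these loci lay under the 37.85 CPM mean of the last of the 300, so their membership rests on the N2 libraries.

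Of the 12, Novel02694 also had the highest ratio in both pairs of Cd alone, among loci that reached 20 CPM on either side. It had 271 and 310.4 CPM in N2_Cd_Zn and N2_Cd and 54.6 and 51.7 CPM in N2_Zn and N2. At basal Ca/K it had 8.37 and 124 CPM in N0_Cd_Zn and N0_Cd and 16.7 and 5.75 CPM in N0_Zn and N0. Both Cd libraries of high Ca/K were thus above every other library, while at basal Ca/K the value with Cd and Zn lay below that with Zn alone. Novel03847 (1709 bp) was higher with Cd in all 4 pairs, with 123, 183, 30.0 and 74.0 CPM in N2_Cd_Zn, N2_Cd, N0_Cd_Zn and N0_Cd, against 81.0, 79.5, 20.1 and 26.8 CPM in N2_Zn, N2, N0_Zn and N0. The edgeR log2 fold change of Novel03847 for Cd was 0.92 (SE 0.30, unadjusted p = 0.0195, adjusted p = 1), and that of Novel02694 was 2.33 (SE 0.90, unadjusted p = 0.0390, adjusted p = 1).

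The 7 loci lower at high Ca/K were Novel05386, Novel03889, Novel05381, Novel04993, Novel09324, Novel07371 and Novel00231, with mean log2 ratios from -2.57 to -1.97. Novel05386 (2858 bp) had 31.2, 12.7, 19.6 and 23.9 CPM in N2_Cd_Zn, N2_Cd, N2_Zn and N2, against 120.2, 45.2, 204 and 156 CPM in N0_Cd_Zn, N0_Cd, N0_Zn and N0. Novel03889 (1297 bp) had 24.9, 5.20, 11.1 and 11.99 CPM in N2_Cd_Zn, N2_Cd, N2_Zn and N2, against 54.1, 26.4, 81.9 and 118 CPM in N0_Cd_Zn, N0_Cd, N0_Zn and N0. Both had their lowest value within each Ca/K level in the library with Cd alone, and the N2 and N0 groups did not overlap. Every N2 value of both lay under the 37.85 CPM mean of the last of the 300, so their membership rests on the N0 libraries.

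None of these loci passed the edgeR threshold for Ca/K, although several came near it. Novel10214 had a log2 fold change of 3.30 (SE 0.24, adjusted p = 0.0542), Novel05381 one of -2.51 (SE 0.25, adjusted p = 0.0570), Novel09324 one of -2.38 (SE 0.27, adjusted p = 0.0603), Novel04993 one of -2.46 (SE 0.29, adjusted p = 0.0661) and Novel00231 one of -1.97 (SE 0.26, adjusted p = 0.0729). Novel06280 had 4.69 (SE 0.61, adjusted p = 0.0737). DESeq2 called 16 loci higher and 35 lower for Ca/K, led by Novel05381 (adjusted p = 1.04e-36) and Novel10214 (adjusted p = 7.17e-32), and limma on log2(FPKM + 1) called 5 higher and 4 lower. Without the N0_Cd_Zn library, edgeR itself called 8 loci higher and 26 lower (11.3%, against 5.65% of all genes and 13.7% of arm-coded genes of like level).

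**Figure D4:**
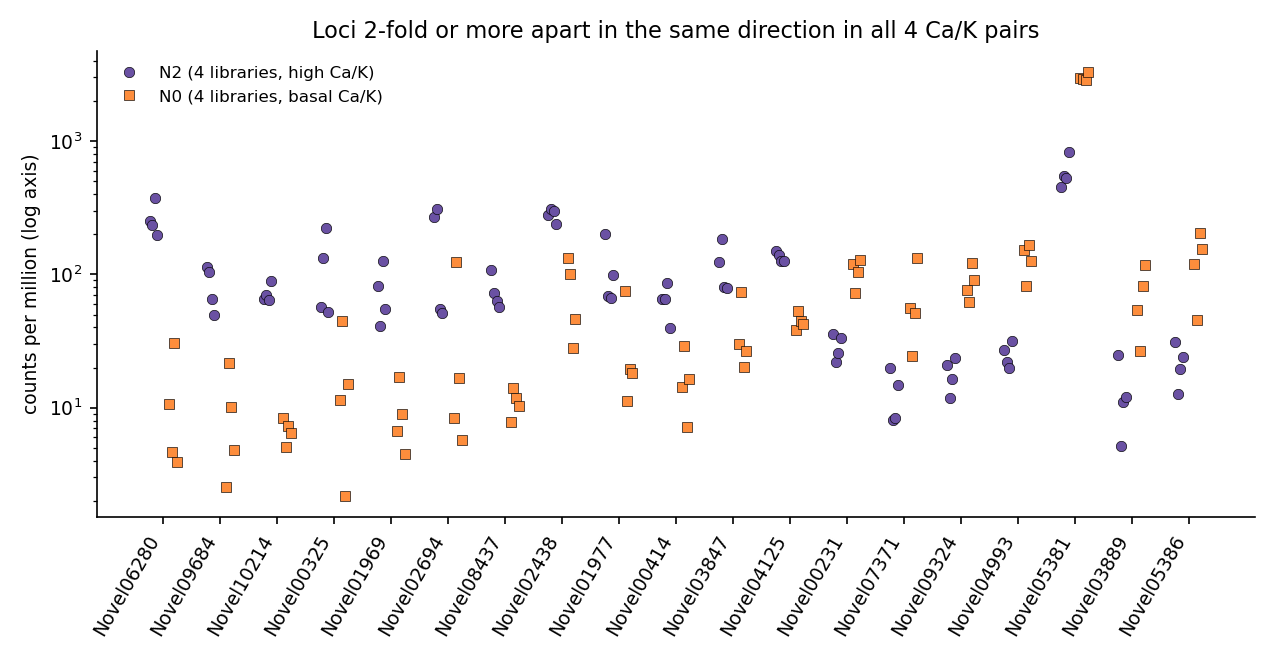
CPM on a log axis of the 19 loci that were 2-fold or more apart in the same direction in all 4 Ca/K pairs, with circles for the 4 N2 libraries and squares for the 4 N0 libraries, ordered by mean log2 ratio. The 12 loci on the left were higher and the 7 on the right lower at high Ca/K, with Novel05381 the most abundant.

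No interaction was called by edgeR among the 300, which does not show that effects were additive. At an unadjusted p under 0.05, there were 24 loci for Ca/K by Cd (8.00%, against 3.85% of all genes and 7.03% of arm-coded genes of like level). There were 3 for Cd by Zn (1.00%, against 7.62% and 2.64%) and 3 for Ca/K by Zn (1.00%, against 1.46% and 1.43%). The smallest p for Ca/K by Cd belonged to Novel06365 (1377 bp), with an edgeR coefficient of 2.22 on the log2 scale (SE 0.43, adjusted p = 0.812), which DESeq2 called (adjusted p = 0.00625). It had 162, 141, 81.0 and 101.1 CPM in N2_Cd_Zn, N2_Cd, N2_Zn and N2, against 198.5, 218, 521 and 486 CPM in N0_Cd_Zn, N0_Cd, N0_Zn and N0. At basal Ca/K both Cd libraries were lower than their partners, whereas at high Ca/K both were above them. Without N2_Cd_Zn, edgeR called 10 loci for Cd by Zn (3.33%, against 5.39% of all genes).

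In the library N2_Cd, a small set of loci without an arm code had almost no reads although they were well expressed in all 7 other libraries. Novel00557 (784 bp) had 1 count in N2_Cd, against 1600, 1869 and 1465 counts in N2_Cd_Zn, N2_Zn and N2 and 1282, 1491, 1956 and 1750 counts in N0_Cd_Zn, N0_Cd, N0_Zn and N0. Novel01258 (283 bp) had 1 count in N2_Cd, against 1027, 1096 and 919 counts in N2_Cd_Zn, N2_Zn and N2 and 1068, 637, 1526 and 1650 counts in N0_Cd_Zn, N0_Cd, N0_Zn and N0. Against N2 these are 1122-fold lower (201.0 to 44333) and 704-fold lower (126.0 to 27821). In the table of 124856 genes, 4 genes had at least 10 CPM in 7 libraries and at most 3 counts in the eighth, and all 4 were loci without an arm code, near absent from N2_Cd. Beside the pair among the 300 these were Novel00556 (595 bp, 2 counts in N2_Cd against 599 to 1268 elsewhere) and Novel00618 (904 bp, 0 counts against 433 to 868), which rank 352 and 694 among loci without an arm code by mean CPM. This rule and these loci were chosen after their values were seen.

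With a limit of 5 CPM in the 7 other libraries, 12 genes were near absent from a single library. In N2_Cd there were 8, all of them loci without an arm code, out of 19988 genes and 1981 such loci at that level in the other 7 libraries. N0_Cd_Zn and N2 had 2 such genes each and the remaining 5 libraries had 0. At 2 CPM, N2_Cd had 15 such genes, 12 of them without an arm code, and N0_Zn had 9, of which 0 were without one. The Cd pair at high Ca/K, the Zn pair under Cd at high Ca/K and the Ca/K pair under Cd all contain N2_Cd, and the extremes that Novel00557 and Novel01258 gave there rest on that library. What set N2_Cd apart at these loci was not tested.

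**Figure D5:**
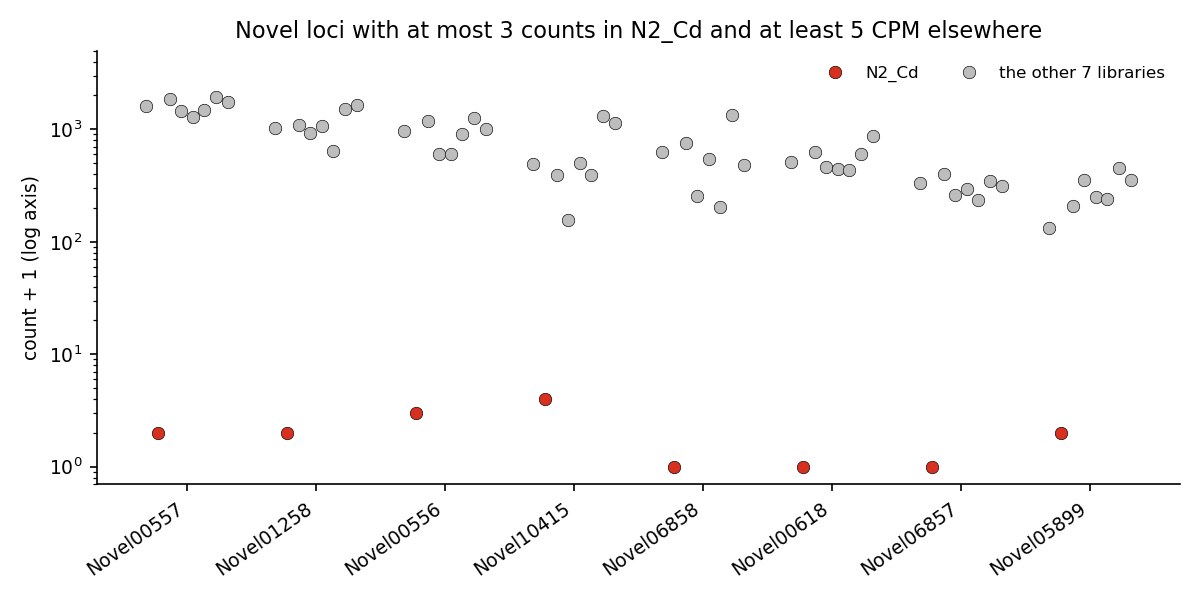
Counts plus 1 on a log axis of the 8 loci with at most 3 counts in N2_Cd and at least 5 CPM in each of the other 7 libraries, ordered by their rank by mean CPM. N2_Cd had 0 to 3 counts of each, while the other 7 libraries had 131 to 1956 counts.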

How the data were processed

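Reads were mapped with Bowtie2 2.0.6 and TopHat2 2.0.12, per the submitters' processing notes, and libraries were made from total root RNA with an Illumina TruSeq kit, per the labels' protocols. The design text instead names SMRT-seq, a long-read technique. No source used here gives the counting tool, strand setting, annotation release or how the loci without an arm code were assembled. The authors deposited whole-number counts per gene and FPKM values, 1 column per treatment. Nor is it stated whether the 3 replicates were pooled. The deposited FPKM equal the counts scaled by length and by the total of the column, and solving for length gave whole numbers of bases. All 16 columns were matched to treatments by name.

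Members and lists were chosen with earlier results of these data known. Named loci are the 10 highest by mean CPM and 3 by mean FPKM, the 2 most extreme per direction in each pair with at least 20 CPM in 1 library, recurrent loci, those with over 50% of summed CPM in 1 library, the 5 steadiest, the rank boundary, the 3 longest and shortest, and 3 consecutive-serial pairs. The loci with the smallest p per test, the recurrent loci listed beyond 2 per direction and the loci near absent from N2_Cd were added after their values were seen. Counts were tested with edgeR 4.0.16 in R 4.3.3 (TMM, filterByExpr with a minimum count of 10, robust quasi-likelihood, Benjamini-Hochberg over 64580 genes), with 4 residual degrees of freedom in the additive model and 3 with an interaction. Pair ratios used a prior count of 2. DESeq2 1.42.0 and limma 3.58.1 served as alternatives, limma with a pseudocount of 1 or 0.1 on the log2 FPKM of genes reaching 0.5 FPKM in 2 libraries. In simulated data with the spread fitted to these counts, the edgeR model missed most 4-fold Cd changes and every Cd by Zn interaction. A lack of calls therefore does not show that loci did not differ. The floor of 3 counts equals 0.119 to 0.150 CPM per library. Counts from PCR reads are not independent molecules, so intervals and floors cover counting error only.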

Additional observations from a re-analysis of the deposited data

How the results depend on the processing

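No analysis paired by replicate was possible because each treatment has 1 column and the labels give no replicate numbers. A fit added after the data were seen, with the 4 combinations of the other factors as block levels, matched treatments rather than replicates, and edgeR then called 0 of the 300 for Cd, Zn or Ca/K, with 6, 7 and 61 at an unadjusted p under 0.05. Counts of loci called by edgeR were 0 with size factors and without the low-count filter, as well as when the 300 were chosen by median CPM (276 loci shared) or by mean FPKM (191 shared). DESeq2 called 1 for Cd, 2 for Zn, 51 for Ca/K and 1 for Ca/K by Cd, and limma called 9 for Ca/K with either pseudocount but 0 without the FPKM filter. Leaving out 1 library each gave 0 to 34 calls for Ca/K, the highest without N0_Cd_Zn, 0 to 10 for Cd by Zn, the highest without N2_Cd_Zn, and 0 for the other terms. The cause of these differences was not tested.

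Among the pair counts, scaling by library totals gave 38 loci higher in N2 against N0 and 11 lower in N2_Zn against N2. It also moved the median log2 ratio of all genes in N2 against N0 to 0.18, where TMM gave -0.068. Choosing loci by median CPM gave 4 lower in N2_Zn against N2, 5 lower in N2_Cd_Zn against N2 and 0 lower in all 4 Zn pairs. With loci chosen by mean FPKM there were 20 higher in N0_Cd_Zn against N0_Cd, 15 lower in N2_Cd_Zn against N2_Cd and 1 higher in all 4 Zn pairs. An alternative added after the data were seen left out the pair that holds N0_Cd_Zn, which gave 2 loci higher in the other Cd pairs, 9 higher in the other Zn pairs and 36 lower in the other Ca/K pairs. The other 290 recomputed counts stayed within 1.5 times. No single-locus ratio or fold change that was recomputed turned its sign. Depth limits the ratios of Novel06751 to N2 and of Novel00557 and Novel01258 to N2_Cd, which rest on 0 or 1 counts in 1 library. It also limits the ratios of Novel02379 that hold N0, N0_Cd_Zn or N2_Cd_Zn, where that locus had 5, 3 and 0 counts.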

Other observations

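Serial numbers are the only other content of these identifiers, and 8 pairs of the 300 loci had consecutive ones. Across the 8 libraries, which share no replicate, the profiles of log2(CPM + 1) of these pairs correlated with a median Pearson r of 0.43, ranging from -0.43 to 0.97, against a median of 0.11 (quartiles -0.36 and 0.51) over all 44850 pairs of the 300. Over 0.9 were 2 of the 8 pairs and 2.28% of all pairs. Novel06289 (487 bp) and Novel06290 (331 bp), with r = 0.92, had their lowest values in N0_Zn (26.9 and 40.4 CPM) and in N0 (64.6 and 81.5 CPM). Novel04947 (3129 bp) and Novel04948 (1037 bp), with r = 0.72, both had less in N2 (33.6 and 19.9 CPM) than in N0 (573 and 69.1 CPM). Novel04605 and Novel04606 had r = 0.015. No source used here says what consecutive numbers mean for position. The highest r was that of Novel00567 and Novel00568 (0.97), whose lowest values were in N2_Cd, at 2.12 and 1.66 CPM, against 36.2 to 109.9 CPM and 43.2 to 78.4 CPM in the other 7 libraries.

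Loci that were near absent from N2_Cd at the lower limit of 2 CPM elsewhere included Novel00556, Novel00557, Novel00570, Novel00603, Novel00618 and Novel00622, and also the consecutive Novel06857 and Novel06858. The first 6 of these, with serial numbers close to those of Novel00567 and Novel00568, were among 12 such loci in all. Novel06858 had 0 counts in N2_Cd and 205 to 1335 counts in the other 7 libraries.

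The loci also differed in length by the library in which they peaked, by CPM scaled to column totals. The median length was 2210 bp for the 65 loci highest in N0, 2184 bp for the 45 highest in N2 and 2120 bp for the 69 highest in N0_Zn, but 1121 bp for the 34 highest in N0_Cd_Zn and 1187.5 bp for the 32 highest in N2_Zn. It was 1473 bp for the 35 highest in N2_Cd_Zn, 1709 bp for the 11 highest in N2_Cd and 1358 bp for the 9 highest in N0_Cd. The arm-coded genes of like level had medians from 1704 bp (highest in N0_Cd_Zn) to 2877 bp (highest in N2). These values are a description of the 300 loci, and no test was made.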
